A study of Homo sapiens with 6 samples.

Results

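The 10 genes described here are classical cadherin genes: 9 encode type II cadherins (CDH18, CDH12, CDH10, CDH9 and CDH6 on chromosome 5, CDH8 and CDH11 on chromosome 16, CDH7 and CDH19 on chromosome 18), and CDH1 on chromosome 16, which encodes E-cadherin, served as the contrast. Each gene was taken with 300 kb on either side on hg19, and its window held every 20 kb bin and every called domain that overlapped it. The 10 windows held 487 of the 140474 bins measured in both cell lines, 451 of them around the type II genes and 36 around CDH1. The genes were chosen by family and position, with earlier results of these data known. HCT116 is an established line of human colorectal cancer cells. DKO1 is a single clone derived from it that carries knockouts of DNMT1 and DNMT3B, the genes of a maintenance and a de novo DNA methyltransferase, and is known for very low DNA methylation. Of the 6 Hi-C libraries, 3 came from unmodified HCT116 and 3 from DKO1, grown in the same serum-containing medium with no further treatment named in the labels. Hi-C joins DNA ends that lie close together in cross-linked chromatin and sequences the joined pieces. The labels of all 3 libraries of a line name the same files, so each line had 1 pooled compartment track and 1 pooled domain list.

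Classical cadherins are calcium-dependent adhesion proteins that bind cadherins of a neighbouring cell and are tied to the actin skeleton through catenins. Type I members such as E-cadherin hold epithelial sheets together, whereas type II members are found mostly in nervous, mesenchymal and neural crest tissue. Several type II genes lie in neighbouring groups on a chromosome, in regions with few other genes. Regions of that kind are usually late replicating, belong to the inactive B compartment and lie in partially methylated domains, which lose DNA methylation in many tumours.

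In RefSeq's order of protein-coding genes on GRCh38.p14, CDH18 lay next to CDH12, CDH10 next to CDH9, CDH8 next to CDH11, and CDH7 next to CDH19. PRDM9, which directs the sites of meiotic recombination, stood alone between CDH12 and CDH10. CDH6 had no cadherin gene beside it and stood between LOC124901178 on its low-coordinate side and DROSHA on the other. Gene density was not measured on hg19, so the description of these regions as gene deserts rests on this order only.

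The sequence in front of the genes differed widely in CpG, the base pair step at which human DNA is methylated. RefSeq's promoter table on GRCh38.p14 held 13 start sites for 7 of the 10 genes, namely CDH18, CDH12, CDH10, CDH9, CDH8, CDH7 and CDH19. The 250 bases before these starts held between 1 and 33 CpGs, with a median of 9. All 35116 promoters of the table had a median of 11, with quartiles of 3 and 23, and 9 of the 13 cadherin starts lay below that median. The following 4 sequences were chosen by the score of their genes, and no link between sequence and score was tested. The whole CDH10 gene was positive in HCT116 and negative in DKO1, and CDH8 stayed deep in B. CDH7 and CDH19 are neighbours, of which CDH19 rose in DKO1. Each sequence runs 5′ to 3′ on the strand of its gene, and capitals mark each CpG.
CDH10, chr5:24644979-24645228, minus strand: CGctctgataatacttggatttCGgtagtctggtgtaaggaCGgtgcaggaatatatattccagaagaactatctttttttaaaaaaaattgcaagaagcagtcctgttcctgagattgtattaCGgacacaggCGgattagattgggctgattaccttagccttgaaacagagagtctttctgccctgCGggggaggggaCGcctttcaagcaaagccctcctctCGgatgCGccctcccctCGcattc
CDH8, first start, chr16:62036439-62036688, minus strand: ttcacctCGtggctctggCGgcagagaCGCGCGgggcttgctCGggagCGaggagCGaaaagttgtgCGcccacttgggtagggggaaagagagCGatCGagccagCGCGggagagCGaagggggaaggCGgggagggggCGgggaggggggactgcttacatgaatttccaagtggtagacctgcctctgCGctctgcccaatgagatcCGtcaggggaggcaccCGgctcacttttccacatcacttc
CDH7, first start, chr18:65750002-65750251, plus strand: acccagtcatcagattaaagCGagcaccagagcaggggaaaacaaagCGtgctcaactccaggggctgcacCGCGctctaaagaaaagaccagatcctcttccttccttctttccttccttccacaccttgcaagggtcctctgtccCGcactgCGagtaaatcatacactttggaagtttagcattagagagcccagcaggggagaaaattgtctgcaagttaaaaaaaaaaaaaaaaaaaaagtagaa
CDH19, chr18:66604091-66604340, minus strand: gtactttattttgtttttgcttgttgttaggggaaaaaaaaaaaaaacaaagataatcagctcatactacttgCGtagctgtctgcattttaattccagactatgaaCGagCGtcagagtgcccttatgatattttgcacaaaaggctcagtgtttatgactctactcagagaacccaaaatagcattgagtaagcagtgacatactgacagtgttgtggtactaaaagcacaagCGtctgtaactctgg
The CDH10 stretch held 10 CpGs at a GC content of 47.6%, and 52.2% of all promoters held at least as many. CDH8 held 19 CpGs at 64.0% GC, which 34.6% of promoters reached. CDH7 held 6 CpGs before its first start at 45.6% GC, and 33 before its second start, a count that 8.15% of promoters reached. CDH19, the next protein-coding gene on the same chromosome, held 4 at 38.0% GC. CpG was searched as the letters CG, which read the same on both strands. These counts describe the reference sequence, and the methylation of these sites was not measured in the files used here.

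The compartment track gives the first principal component of the contact map, PC1, for each bin. Its mean was 0 and its SD 1 on every chromosome in both lines, so a PC1 value is in SD of its own chromosome and levels on different chromosomes are not on a common scale. Bins with a positive PC1 were taken as compartment A, where active chromatin gathers, and bins with a negative PC1 as compartment B, where inactive chromatin gathers. Because there was 1 pooled track per line, no difference between the lines could be set against a spread between replicates. No test was made and no p-value is given. Ranges over the bins of a window describe that window and are not an error. The files used here hold no read or contact counts, so the depth is unknown.

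In HCT116 the type II cadherin windows on chromosome 5 had positive means, and those on chromosomes 16 and 18 were negative in every bin. In units of each gene's own chromosome, the order of mean PC1 ran from CDH1 at 0.86 through CDH18 at 0.51, CDH9 at 0.41, CDH12 at 0.34, CDH6 at 0.23 and CDH10 at 0.23 to CDH7 at -0.83, CDH19 at -0.84, CDH8 at -1.23 and CDH11 at -1.31. The bins of the 5 windows on chromosome 5 overlapped one another in range, as did those of CDH7 with CDH19 and of CDH8 with CDH11, so neighbours in this order on one chromosome were not separated. Placed among the bins of its own chromosome, CDH18 lay above 66.4%, CDH9 above 61.8%, CDH12 above 57.8%, CDH6 above 51.9% and CDH10 above 51.8%. CDH7 lay above 28.1%, CDH19 above 27.8%, CDH8 above 18.8% and CDH11 above 12.0%. CDH1 lay above 70.7% of the bins of chromosome 16.

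**Figure D1:**
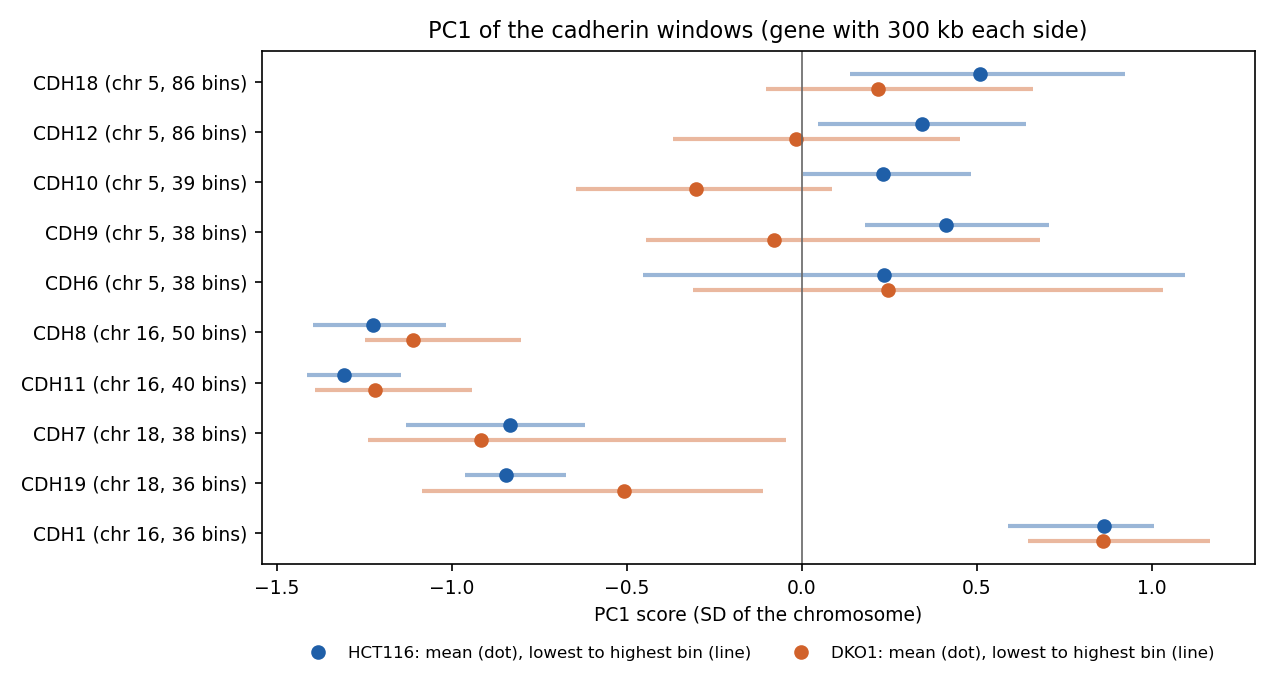
PC1 in SD of the chromosome for the 10 cadherin windows in HCT116 (blue) and DKO1 (orange); dots are the mean over a window and lines run from its lowest to its highest 20 kb bin. The chromosome 5 genes lie between the deeply negative CDH8 and CDH11 and the positive CDH1, and CDH12, CDH10 and CDH9 have means below 0 in DKO1 only.

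By the sign of PC1, the chromosome 5 genes lay in compartment A in HCT116, unlike the genes on chromosomes 16 and 18. Of the 287 bins around CDH18, CDH12, CDH10, CDH9 and CDH6, 272 (94.8%) were positive, against 59.5% of all bins of chromosome 5. They were weakly positive: 71.4% had an absolute PC1 under 0.5, against 40.3% of the chromosome. Only 3 domains overlapped these windows. Along chromosome 5, 24.9% of bins with a PC1 from 0 to 0.5 lay in a called domain, below the 30.1% of B bins and the 40.2% of all A bins. Over all chromosomes the order was different, with 38.7% for such weakly positive bins and 33.6% for B bins.

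In DKO1 the mean score of the chromosome 5 windows fell, with the exception of CDH6. It turned negative for CDH12, CDH10 and CDH9, while CDH18 stayed positive at 0.22. The mean over the 5 genes fell from 0.35 to 0.01, a difference of -0.33. Over chromosome 5 the median of the bin differences was -0.0485, while the median bin moved from 0.20 to -0.03. Of the 287 bins, 144 (50.2%) were still positive in DKO1. From A to B turned 130 bins, 45.3% of all 287 and 47.8% of the 272 that were A in HCT116. Of all A bins, 27.1% turned to B on chromosome 5 and 18.9% over all chromosomes. Among bins that started weakly positive, with an HCT116 PC1 from 0 to 0.5, 118 of 190 (62.1%) turned in the windows, near the 54.7% of such bins along chromosome 5, a split added after the values were seen. From B to A turned 2 of the 15 B bins (13.3%), beside 13.2% of B bins on the chromosome and 10.8% over all. The score was lower in DKO1 by over 0.5 in 80 of the 287 bins, with backgrounds of 19.7% on chromosome 5 and 16.3% over all chromosomes. It was higher by over 0.5 in 0 bins, where the backgrounds were 20.4% and 14.9%.

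Most of the switched bins were weak in both lines. Of the 130, 113 had an absolute PC1 under 0.5 in HCT116 and in DKO1, 12 had a PC1 of at least 0.5 in HCT116, 5 were at or below -0.5 in DKO1, and 0 passed that size in both lines. In DKO1 91.3% of the bins lay under that size, against 44.7% of the chromosome. With each chromosome's median subtracted, the mean difference was -0.11 and 33.4% of bins turned from A to B. With a 10 Mb running mean subtracted, the difference was -0.0833 and the share 23.7%. Around CDH18, CDH12, CDH10 and CDH9 that mean takes in much of the stretch from 19.17 to 27.34 Mb, which itself went from 0.35 to -0.05. It therefore removes part of any change shared along the stretch. After either subtraction, signs are relative to the value taken off.

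CDH18, a cadherin of the nervous system, kept most of its positive bins. The share that turned to B was below that of all A bins of the chromosome. Its 1110 kb gene on chromosome 5 from 19.47 to 20.58 Mb has a window of 86 bins. In HCT116 all 86 were positive, from 0.14 in the bin starting at 20840001 to 0.92 at 19240001, with a mean of 0.51. In DKO1 the mean was 0.22, from -0.10 at 20560001 to 0.66 at 19940001, and 75 bins stayed positive. The 300 kb on the low-coordinate side fell from 0.65 to 0.17 and the gene itself from 0.51 to 0.21, whereas the other flank went from 0.35 to 0.28. The 11 switched bins (12.8%, beside 27.1% of A bins on chromosome 5) included 3 runs of 3 or more, at 19380001-19440000, 20060001-20120000 and 20520001-20580000, with DKO1 means from -0.0938 to -0.0317. The last run holds the upper end of the gene, which is its 5′ end, with a mean of 0.62 in HCT116. Of the window's 41 bins with an HCT116 PC1 from 0 to 0.5, 6 turned (14.6%), beside 54.7% of such bins along the chromosome. The other 5 switched bins had an HCT116 PC1 of at least 0.5, for which no chromosome share was computed. RefSeq lists 3 starts for CDH18 on GRCh38.p14. They were not joined to hg19 bins, so the score at each start is not given. The CDH18 difference was -0.29 as measured, -0.0673 with the chromosome median subtracted and -0.18 with a 10 Mb running mean subtracted.

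CDH12, also expressed in brain, is as long as CDH18, and 43 of the 56 bins of the gene turned from A to B. It runs from 21.75 to 22.86 Mb, and its window mean went from 0.34 to -0.02. In HCT116 its 86 bins were all positive, from 0.04 at 23080001 to 0.64 at 22980001. In DKO1 33 of them were positive, and values ran from -0.37 at 22560001 to 0.45 at 21440001. The 53 bins of the window that turned from A to B (61.6%) formed long runs at 21840001-22180000, with means of 0.33 and -0.13, and at 22220001-22720000, with means of 0.27 and -0.15. Shorter runs lay at 22840001-23000000, with means of 0.52 and -0.16, and at 23100001-23160000. Beside the 61.6% stood 27.1% of all A bins on chromosome 5. Of the window's 73 bins with an HCT116 PC1 from 0 to 0.5, 47 turned (64.4%), near the 54.7% of such bins along the chromosome. The flank toward CDH18 kept a positive mean, 0.40 in HCT116 and 0.26 in DKO1, and the flank toward CDH10 went from 0.37 to -0.10. The CDH12 difference of -0.36 was -0.14 with the chromosome median subtracted, with 53.5% of bins from A to B. With a 10 Mb running mean subtracted it was -0.0065, with 24.4% of bins from A to B and 18.6% from B to A. These signs are relative to the running mean, as all 86 bins were positive in HCT116 as measured.

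CDH10, a cadherin of brain and its synapses, had the lowest DKO1 mean of the chromosome 5 genes and fell in 39 of 39 bins. The gene covers 170 kb from 24.48 to 24.65 Mb, and all 39 bins of its window were positive in HCT116, from 0.00350 at 24780001 to 0.48 at 24520001. In DKO1 1 bin was positive, 0.09 at 24380001, and the lowest was -0.65 at 24840001. The window mean went from 0.23 to -0.30, a difference of -0.54, and the mean over the gene's own 9 bins from 0.37 to -0.38. Within the gene the lines did not overlap: HCT116 ranged from 0.20 to 0.48 and DKO1 from -0.53 to -0.21. The 38 switched bins (97.4%) made a run of 10 bins at 24180001-24380000, with means of 0.17 and -0.24, and a run of 28 bins at 24400001-24960000, with means of 0.25 and -0.34. The longer run holds the whole gene. Beside the 97.4% stood 27.1% of all A bins on chromosome 5. All 39 bins of the window had an HCT116 PC1 under 0.5, and 54.7% of such A bins turned along the chromosome. With the chromosome median subtracted the difference was -0.31 and 46.2% of bins turned from A to B. With a 10 Mb running mean subtracted the difference was -0.15 and the share 17.9%. Relative to that mean, which holds part of the same change, CDH18 fell by more than CDH10.

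CDH9, which acts in synapse formation in the hippocampus, fell in its gene and on both sides. The mean turned negative in the gene and in the flank toward CDH10, but not in the flank toward CDH6. The gene covers 160 kb from 26.88 to 27.04 Mb, and its window mean went from 0.41 to -0.08. The 38 HCT116 bins were all positive, from 0.18 at 26940001 to 0.71 at 27260001. In DKO1 12 were positive, and values ran from -0.45 at 26900001 to 0.68 at 27280001. A single run of 24 bins at 26580001-27060000 held the gene, with means of 0.33 and -0.25. The other 2 of the window's 26 switched bins (68.4%) lay outside that run. Beside the 68.4% stood 27.1% of all A bins on chromosome 5. Of the window's 28 bins with an HCT116 PC1 from 0 to 0.5, 25 turned (89.3%), beside 54.7% of such bins along the chromosome. The flank toward CDH10 went from 0.36 to -0.24, whereas the flank toward CDH6 stayed positive at 0.54 and 0.19. The CDH9 difference of -0.49 was -0.27 with the chromosome median subtracted and -0.14 with a 10 Mb running mean subtracted, with 63.2% and 52.6% of bins from A to B.

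CDH6, known as K-cadherin and expressed in kidney and neural crest, kept most of its profile. Its window, centred on a gene of 140 kb from 31.19 to 31.33 Mb, spanned a step from B to A in both lines. In HCT116 the 38 bins rose from -0.45 at 30880001 to 1.09 at 31620001, and in DKO1 from -0.31 at 30900001 to 1.03 at 31440001. The low-coordinate flank had means of -0.23 and -0.14, the gene 0.26 and 0.20, and the other flank 0.68 and 0.65. The score was lower in DKO1 by over 0.5 in 2 bins, both at the upper end, where the bin that was highest in HCT116 stood at 0.24. The window means were 0.23 and 0.25, and 23 bins were positive in each line, with 2 bins switched in each direction. These were 8.70% of the window's A bins and 13.3% of its B bins, beside 27.1% and 13.2% on chromosome 5. Of the 5 chromosome 5 windows CDH6 was the only one with as many positive bins in DKO1 as in HCT116, and it lies nearest to a domain called in both lists.

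**Figure D2:**
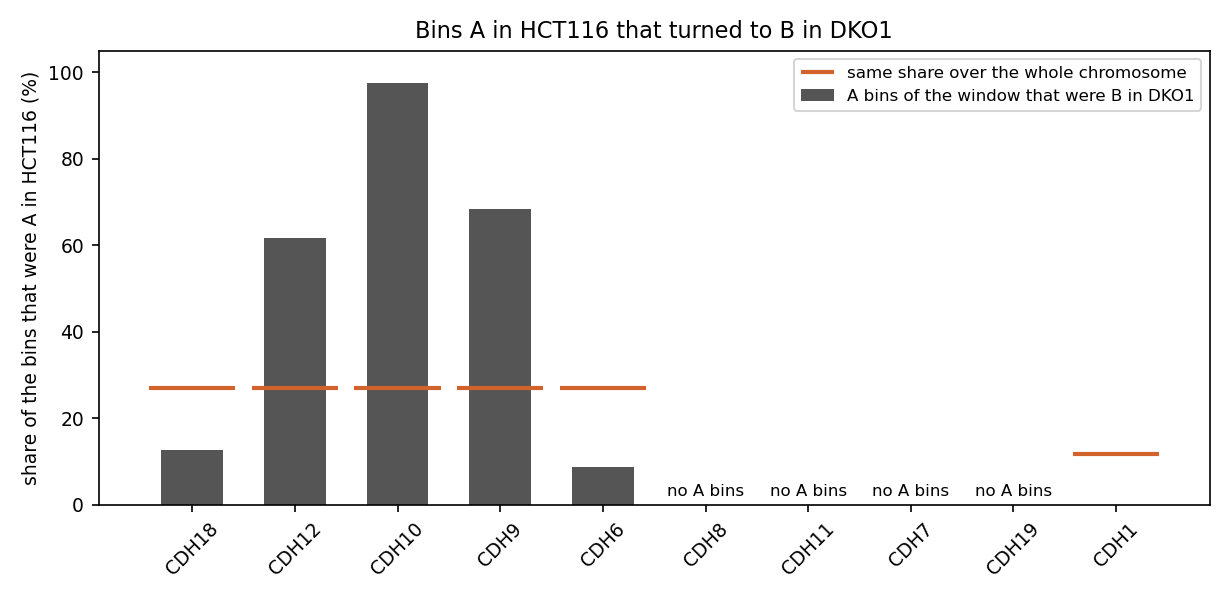
Share of the 20 kb bins of each cadherin window with a positive HCT116 score that turned from A to B in DKO1, in percent (grey bars), with the same share over the gene's chromosome (orange lines). CDH10 reaches 97.4%, CDH9 68.4% and CDH12 61.6%, CDH18 lies at 12.8% and CDH6 at 8.70%, both under the 27.1% of chromosome 5, CDH1 is at 0, and CDH8, CDH11, CDH7 and CDH19 had no bin that could turn. The orange lines count A bins of any size. In the chromosome 5 windows 190 of 272 A bins had an HCT116 PC1 under 0.5, and 54.7% of such A bins turned along chromosome 5.

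The change was not limited to the windows. From the CDH18 window to the CDH9 window, 19.17 to 27.34 Mb, the mean over 408 bins went from 0.35 to -0.05 and the positive share from 98.0% to 40.2%. Between the windows, the stretch from CDH18 to CDH12 went from 0.43 to 0.18, that from CDH12 to CDH10 from 0.35 to -0.04, and that from CDH10 to CDH9 from 0.18 to -0.33. The last of these had the fewest positive bins in DKO1, 3.70% against 90.1% in HCT116, and 70 of its 81 bins switched. All 70 turned from A to B, as did 16.1% of all bins of chromosome 5. The stretch was weakly positive in HCT116, and 54.7% of the chromosome's bins with an HCT116 PC1 from 0 to 0.5 turned. From CDH9 to CDH6 the mean went from 0.17 to -0.09. In HCT116 CDH18, CDH12 and CDH10 shared 1 unbroken A interval of 6860 kb at 18240001-25100000. In DKO1 the middle of CDH18 lay in an A interval of 620 kb at 19440001-20060000, that of CDH12 in a B interval of 500 kb at 22220001-22720000, and that of CDH10 in a B interval of 1700 kb at 24400001-26100000. The middle of CDH9 passed from an A interval of 1980 kb to a B interval of 900 kb, while that of CDH6 stayed in an A interval of 1580 kb in HCT116 and 1600 kb in DKO1.

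**Figure D3:**
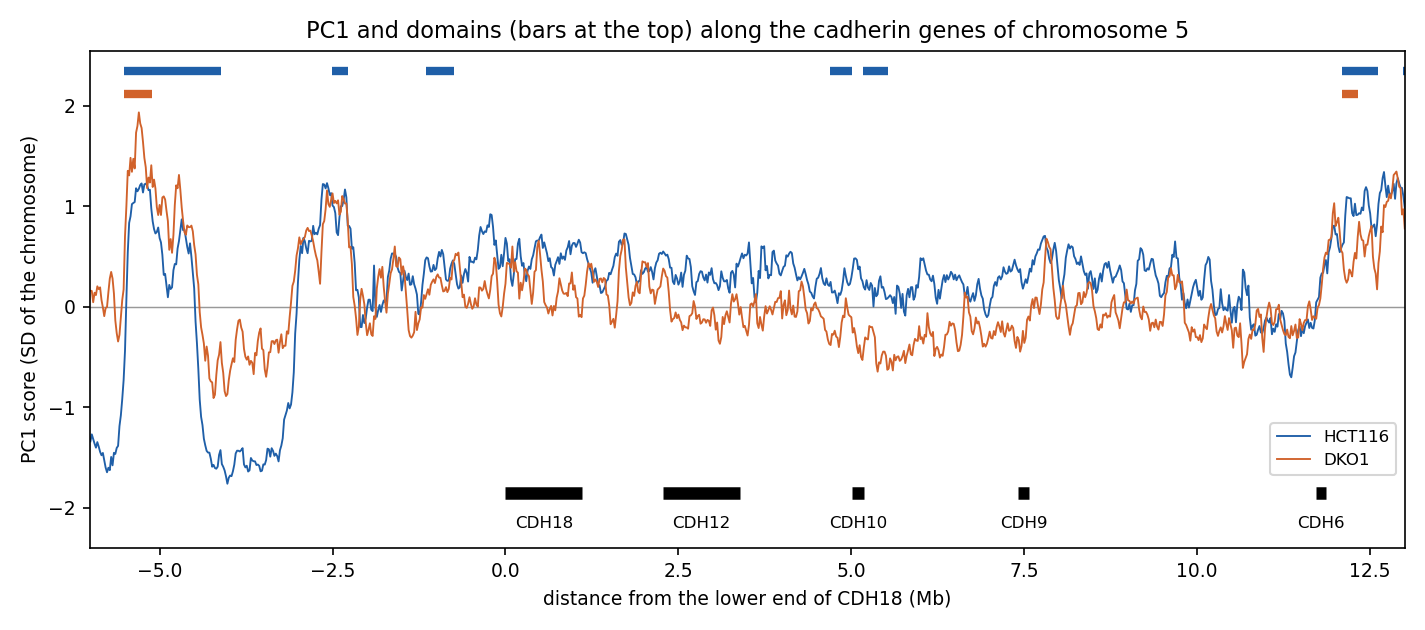
PC1 in SD of the chromosome along the chromosome 5 stretch that holds CDH18, CDH12, CDH10, CDH9 and CDH6, drawn as distance in Mb from the lower end of CDH18, with HCT116 in blue, DKO1 in orange, genes as black bars and listed domains as coloured bars at the top. From CDH18 to CDH9 the HCT116 line stays above 0 almost throughout, the DKO1 line lies mostly below 0 from CDH12 to CDH9, and a domain beside CDH6 is drawn for both lines.

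The short arm of chromosome 5, on which all 5 genes lie, also had another range of scores in the lines. Its median bin was 0.19 in HCT116 and 0.03 in DKO1, its lowest -1.83 and -1.10, and its mean -0.07 and 0.12. The long arm had medians of 0.20 and -0.07 and lowest bins of -2.41 and -2.52. With each arm's mean subtracted, an alternative added after the values were seen, the chromosome 5 difference was -0.52 and 57.5% of the bins turned from A to B. Whether the arm's change of range takes part in the difference at the genes was not tested.

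On chromosome 16 CDH8 and CDH11 stayed in B in both lines. CDH8, a synaptic cadherin of the cortex, covers 390 kb from 61.68 to 62.07 Mb and had a window mean of -1.23 in HCT116 and -1.11 in DKO1. Its 50 bins ran from -1.40 at 61440001 to -1.02 at 62200001 in HCT116 and from -1.25 at 61400001 to -0.80 at 62140001 in DKO1. CDH11, the OB-cadherin of osteoblasts and mesenchymal cells, covers 190 kb from 64.97 to 65.16 Mb and had means of -1.31 and -1.22. Its 40 bins ran from -1.41 at 65320001 to -1.15 at 65100001 in HCT116 and from -1.39 at 65360001 to -0.94 at 65140001 in DKO1. The highest DKO1 bin holds the upper end of the gene.

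The shift of CDH8 and CDH11 was small. It came to 0.11 for CDH8, with bins from -0.0724 to 0.27, where 45 of 50 bins were higher in DKO1. For CDH11 it was 0.0894, with bins from -0.0443 to 0.27, where 34 of 40 were higher. Over chromosome 16 the median of the bin differences was 0.05, while the median bin moved from 0.19 to -0.08. With a 10 Mb running mean subtracted, the differences were -0.0066 and -0.0235, too small to give a direction. With the chromosome median subtracted they were 0.39 and 0.36. All 90 bins were B in HCT116 and 0 turned to A, beside 2.88% of the B bins of chromosome 16. By over 0.5 SD 0 bins moved, with backgrounds of 8.41% lower and 3.66% higher. A single B interval held both genes, 7540 kb long in HCT116 and 7560 kb in DKO1, ending at 66320000 in both.

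CDH7 and CDH19 on chromosome 18 were also negative in every bin of both lines, but their DKO1 profile was uneven. CDH7, a cadherin of the nervous system, covers 140 kb from 63.41 to 63.55 Mb, with window means of -0.83 and -0.92. Its 38 bins ran from -1.13 at 63680001 to -0.62 at 63520001 in HCT116 and from -1.24 at 63100001 to -0.05 at 63560001 in DKO1. The low-coordinate flank went from -0.83 to -1.11, while the 3 bins just above the gene, 63560001-63620000, rose from a mean of -0.83 to -0.15. The direction for CDH7 changed with the setting: the difference was -0.08 as measured, 0.0736 with a flank of 100 kb, and 0.27 with the chromosome median subtracted.

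CDH19, expressed in Schwann cell precursors, rose in mean PC1. The gene covers 110 kb from 64.17 to 64.28 Mb, and its window mean went from -0.84 to -0.51. Its 36 bins ran from -0.96 at 64380001 to -0.67 at 64480001 in HCT116 and from -1.09 at 63860001 to -0.11 at 64500001 in DKO1. The flank toward CDH7 was -0.83 and -0.92, the gene -0.88 and -0.27, and the other flank -0.85 and -0.20. The score rose by over 0.5 in 18 bins, 14 of them in a run at 64200001-64480000 with means of -0.90 and -0.21. For both genes together 21 of 74 bins rose by over 0.5, where the background on chromosome 18 was 10.8%, and 0 fell by over 0.5, where it was 15.3%.

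All 74 bins of the CDH7 and CDH19 windows were B in HCT116 and 0 turned to A, beside 5.09% of the B bins of chromosome 18. With the chromosome median subtracted, 16.7% of the CDH19 bins and 2.63% of the CDH7 bins turned from B to A. The B interval that holds both genes ended at 66300000 in HCT116 and at 64640000 in DKO1, 60 kb past the CDH19 window. With a flank of 1 Mb, 23.6% of the 106 bins around CDH19 turned from B to A and 0 of the 108 around CDH7. The CpG counts before CDH7 and CDH19 are given above, and no relation of CpG content to the score can be read from 7 genes.

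**Figure D4:**
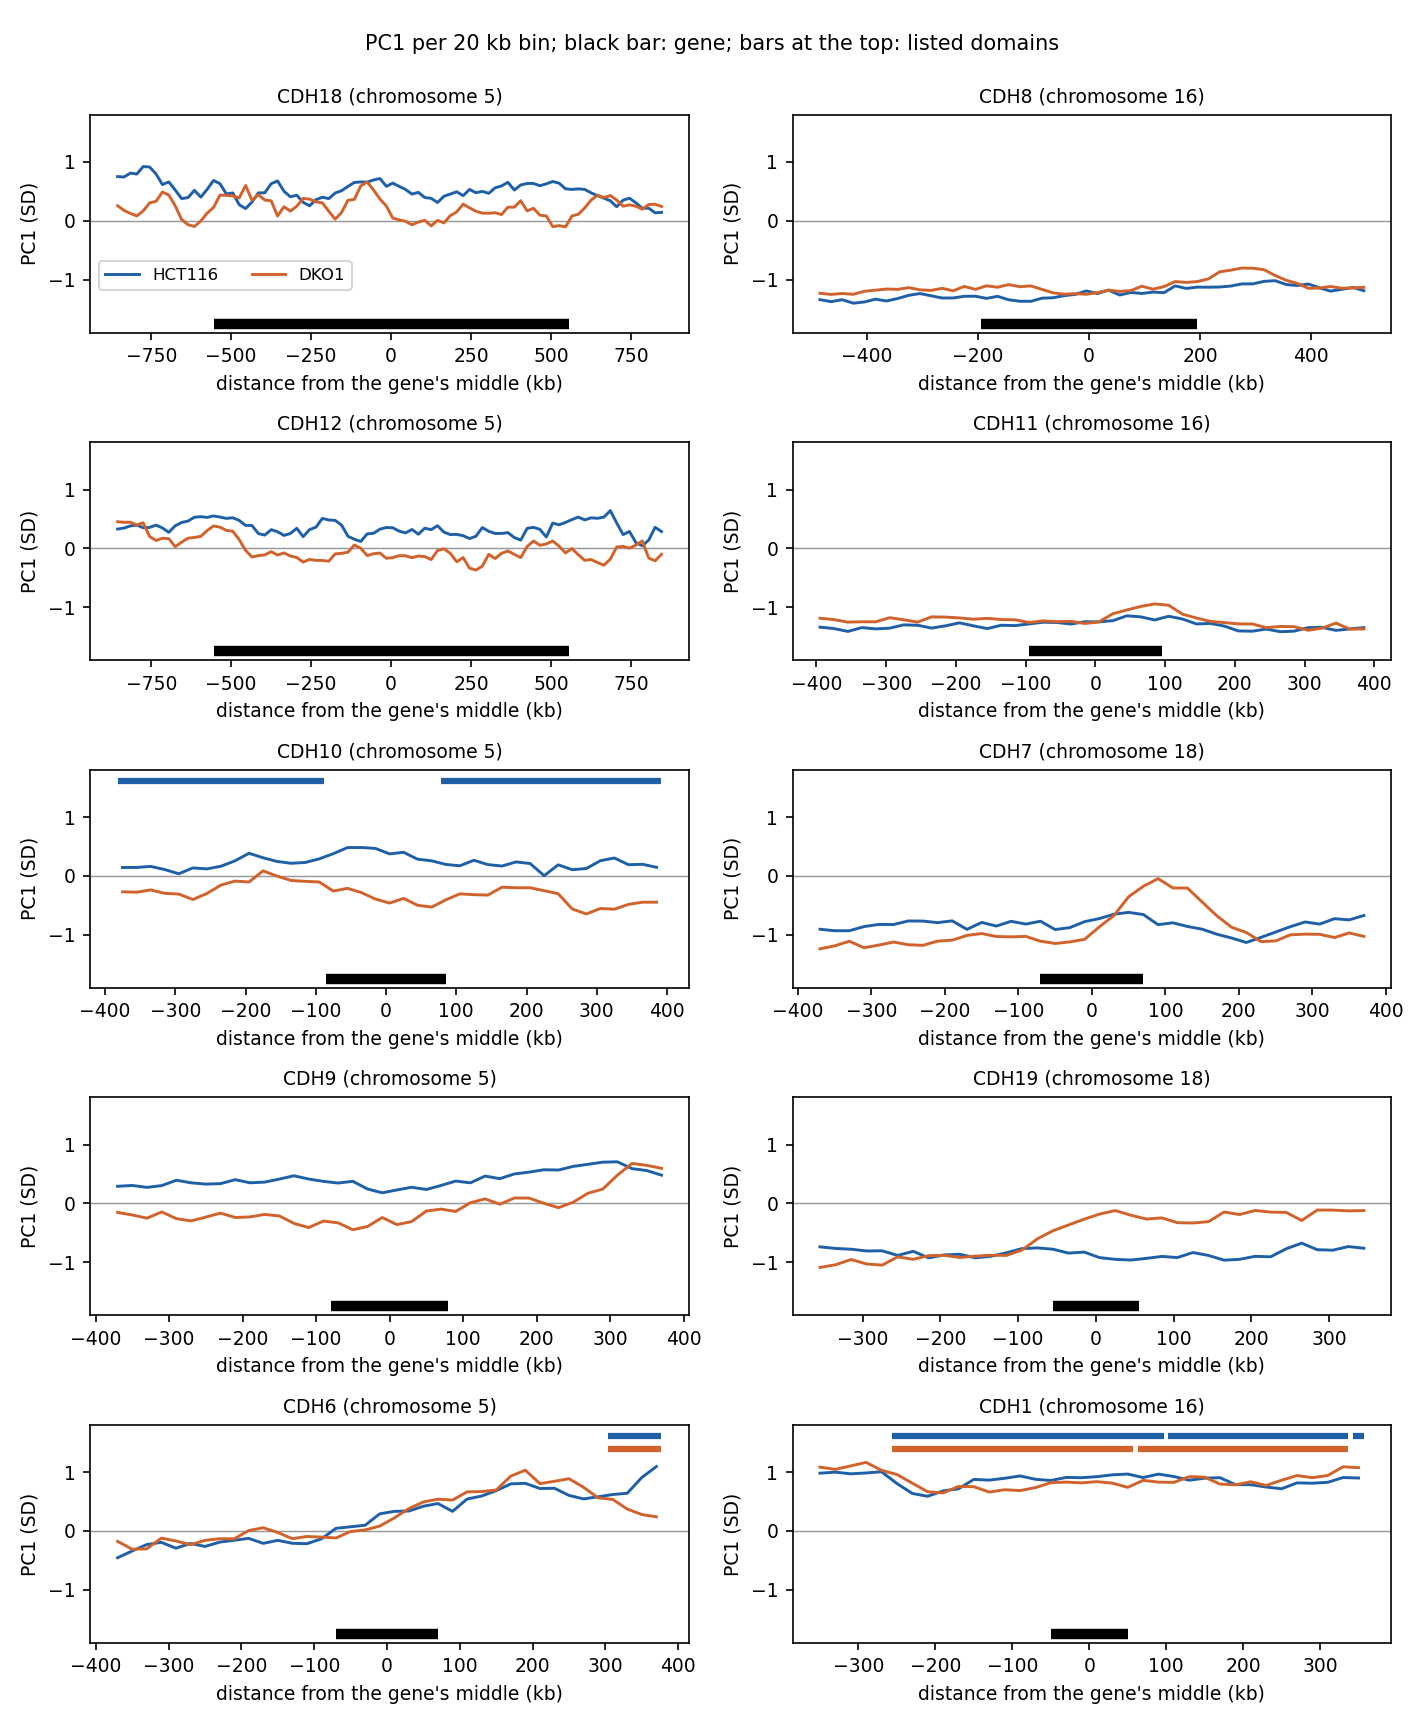
PC1 in SD of the chromosome by distance in kb from the middle of each gene for the 10 cadherin windows, HCT116 in blue and DKO1 in orange, with the gene as a black bar and listed domains as coloured bars at the top. CDH10 lies above 0 in HCT116 and below 0 in 38 of 39 DKO1 bins, CDH6 keeps its slope, CDH8 and CDH11 run level near -1.2, and CDH19 rises on its high-coordinate side in DKO1.

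CDH1, the contrast, was positive in all 36 bins of its window in both lines. The gene covers 100 kb of chromosome 16 from 68.77 to 68.87 Mb, and its window mean was 0.86 in HCT116 and 0.86 in DKO1. Bins ran from 0.59 at 68600001 to 1.01 at 68540001 in HCT116 and from 0.65 at 68620001 to 1.16 at 68520001 in DKO1, so the ranges overlapped. None of the 36 turned to B, beside 11.8% of the A bins of chromosome 16. In DKO1 17 bins were lower and 19 higher, and the mean over the gene's own 6 bins was 0.92 and 0.81. With the chromosome median subtracted the CDH1 difference was 0.27.

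Seen as places among the bins of their own chromosome, CDH10 fell the most, from above 51.8% to above 35.8% of bins. CDH9 went from 61.8% to 47.3%, CDH12 from 57.8% to 50.3% and CDH18 from 66.4% to 62.0%. CDH6 went up from 51.9% to 63.4%, although its mean moved by only 0.01, and CDH19 from 27.8% to 38.1%. The other genes stayed closer: CDH8 at 18.8% and 20.6%, CDH11 at 12.0% and 10.7%, CDH7 at 28.1% and 25.5%, and CDH1 at 70.7% and 68.7%. On this measure CDH18 moved little, while its mean PC1 fell by 0.29.

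**Figure D5:**
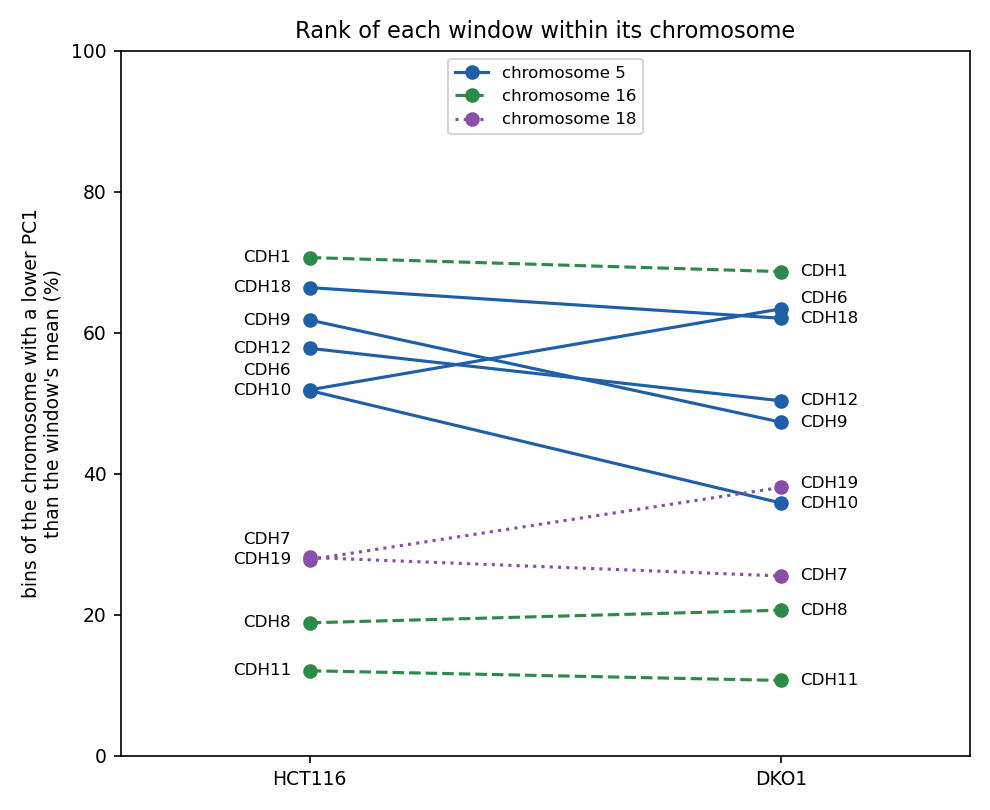
Share of the bins of its own chromosome that lie below the mean PC1 of each cadherin window, in percent, in HCT116 and in DKO1, joined by a line per gene and coloured by chromosome. CDH10 falls from 51.8% to 35.8%, CDH6 and CDH19 rise, and CDH8, CDH11, CDH7 and CDH1 move least.

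How far the pattern of bins inside a window was shared between the lines also differed by gene. Pearson's r over the bins was 0.86 for CDH6, 0.73 for CDH11, 0.70 for CDH8, 0.69 for CDH9 and 0.47 for CDH1. It was 0.25 for CDH12, 0.22 for CDH7, 0.11 for CDH10, -0.04 for CDH18 and -0.20 for CDH19. Over whole chromosomes it was 0.83 on chromosome 5, 0.94 on chromosome 16 and 0.90 on chromosome 18. Scores spread less inside a window than along a chromosome, with an SD over the HCT116 bins of 0.43 for CDH6 and 0.08 for CDH19. A narrow spread can lower r by itself, so r of a window and of a chromosome are not directly comparable. Neighbouring bins share contacts and the windows hold 36 to 86 bins, so these values are a description.

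Topologically associating domains, in which a region's contacts fall mostly within itself, were scarce around the type II genes in HCT116. Of all bins, 36.1% lay in an HCT116 domain on chromosome 5, 54.2% on chromosome 16 and 40.1% on chromosome 18, and in DKO1 12.6% on chromosome 5 and 26.4% on chromosome 16, with chromosome 18 between them. The windows of CDH8, CDH11, CDH7 and CDH19 held B bins only. Of B bins, 37.9% on chromosome 16 and 25.2% on chromosome 18 lay in an HCT116 domain, and 11.6% and 5.04% in a DKO1 domain. These are shares of bins, while the counts that follow are of windows. In HCT116 the domain list had an entry for 2 of the 9 type II windows, CDH10 and CDH6, and in DKO1 for 1, CDH6. CDH10 had a pair of HCT116 domains, 24160001-24480000 on the low side and 24640001-25000000, which touches the gene, and 0 in DKO1. The mean PC1 of the first was 0.20 in HCT116 and -0.19 in DKO1, and that of the second 0.17 and -0.41. The domain at 31560001-31800000 beside CDH6 had the same start and end in both lists, with a mean PC1 of 0.93 and 0.41. Around CDH18, CDH12, CDH9, CDH8, CDH11, CDH7 and CDH19 0 domains were listed in either line.

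CDH1 in contrast lay inside a domain in both lines. The HCT116 domain at 68560001-68920000 and the DKO1 domain at 68560001-68880000 each hold the whole gene. The next domain, 68920001-69160000 in HCT116 and 68880001-69160000 in DKO1, was also matched at a reciprocal overlap of 80%, and another at 69160001-69360000 was listed in HCT116 only. Domains covered 610 kb of the CDH1 window in HCT116 and 600 kb in DKO1, against 610 and 0 kb for CDH10 and 70 kb in both for CDH6.

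The DKO1 list was shorter throughout, with 1823 domains against 4289. Over all domains, 35.3% of the HCT116 entries were matched in DKO1 and 83.1% of the DKO1 entries in HCT116, and 44.7% and 91.9% of the boundaries were found in the other list within 40 kb. Inside the chromosome 5 windows 1 of 3 HCT116 boundaries was found, and inside the CDH1 window all 3 in each direction. These counts are too few to set against the backgrounds.

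Apart from CDH10, which a domain touches in HCT116, the type II genes lay in long gaps between domains. In HCT116 a gap of 5.44 Mb from 18.72 to 24.16 Mb held CDH18 and CDH12, and another of 6.56 Mb, ending at 31.56 Mb, held CDH9 and CDH6. The gap around CDH8 and CDH11 was 7.32 Mb long and that around CDH7 and CDH19 6.28 Mb. In DKO1 all 5 genes of chromosome 5 lay in a single gap of 17.2 Mb, from 14.36 to 31.56 Mb, while the gaps on chromosomes 16 and 18 were 8.12 and 6.8 Mb long. Gaps of at least 5 Mb, a size chosen after the values were seen, held 9.58% of all bins in HCT116 and 41.7% in DKO1. They held 8 of the 10 genes in HCT116 and 9 of the 10 in DKO1. Neighbours shared gaps: the 8 genes lay in 4 of 42 such gaps and the 9 genes in 3 of 123. The size lies below the 5.44 Mb gap of CDH18 and CDH12, so the gene counts cannot be weighed against the shares of bins. By those shares, a place in such a gap was uncommon for a bin in HCT116 and common in DKO1. No score comes with the domain lists, and the maps' depth is unknown, so a missing domain cannot be told apart from one that was too weak to be called.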

How the data were processed

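Per the labels' protocols, chromatin of HCT116 (3 libraries) and DKO1 (3 libraries) was fixed with formaldehyde and cut with DpnII and HinfI. HiC-Pro, HOMER 4.6 and the genome build hg19 (GRCh37) are named in the submitters' processing notes, with no role for each. How domains were called and reads filtered is not given in the sources used here. The deposited PC1 score covers bins of 20 kb and was scaled by the authors to a mean of 0 and an SD of 1 per chromosome, as the values show. The deposited domain lists give positions on a 40 kb grid, with no score. Contact maps were not used here. Because the tracks are pooled, no test was made, and depth is unknown.

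Bins and domains of each gene with 300 kb on either side were taken by position. A difference of over 0.5 SD was called large, and runs of at least 3 bins switched the same way were named. A domain counted as matched where it and a domain of the other list covered 80% of each other, and a boundary as found within 40 kb. All 10 genes were named, as were the highest and lowest bin of each window, every such run and every domain. The genes, lists and settings were chosen with earlier results of these data known. Promoter sequences were taken from RefSeq's table on GRCh38.p14 by symbol, as the 250 bases before each start, and were not joined to hg19 positions. A planned comparison of protein sequences was not run. The functions were tested on simulated data. Python 3.11.15, numpy 2.4.6, pandas 2.3.3 and matplotlib 3.10.9 were used. Alternatives covered the flank, the centring, smoothing, a PC1 minimum and the domain rules; subtracting the arm mean was added after the data had been seen.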

Additional observations from a re-analysis of the deposited data

How the results depend on the processing

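No paired analysis was possible because each line has 1 pooled track and 1 pooled list, so no replicate was left out and no result comes from a test. Of the alternatives to the values that answer a comparison, 211 left the value close to the one reported, 52 moved it and 1 reversed it; for the other values 752 stayed close, 116 moved and 8 reversed. The cause was not tested for any of them. A PC1 value counted as close where it moved by less than the SD over the bins. Unless very small as reported, it counted as reversed where its sign changed, however small the new value was. A share of switched bins counted as close inside a binomial interval that treats bins as independent, which neighbouring bins are not. Large moves could thus count as close, such as the CDH18 difference of -0.29, which was -0.0673 with the chromosome median subtracted. The tally is therefore no measure of how firm the values are.

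With the chromosome median subtracted, the HCT116 level was 0.67 for CDH1, -1.46 for the chromosome 16 genes and -1.06 for the chromosome 18 genes. The difference was then 0.27 for CDH1, 0.37 on chromosome 16, 0.48 on chromosome 18 and -0.11 on chromosome 5, where 33.4% of bins turned from A to B and 3.83% from B to A. On chromosome 18 9.46% turned from B to A, and the CDH7 difference reversed to 0.27.

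With a 10 Mb running mean subtracted, CDH1 stood at 0.65 and 0.63 in HCT116 and DKO1. The chromosome 16 genes stood at -0.73 and -0.75, with a difference of -0.0151, counted as reversed though very small. The chromosome 18 genes stood at -0.74 in HCT116 with 13.5% of bins from B to A. The chromosome 5 level was 0.0779 in HCT116, with a difference of -0.0833, 23.7% of bins from A to B and 8.01% from B to A. Signs here are relative to the running mean, so these shares do not count changes of compartment as measured. Under the same setting the HCT116 level changed sign for CDH12 (-0.0096) and CDH10 (-0.10), and the DKO1 level for CDH9 (0.0129). The difference changed sign for CDH8 (-0.0066), CDH11 (-0.0235) and CDH7 (0.0101). Apart from that of CDH10, these values were too small to give a direction.

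With a flank of 1 Mb CDH1 stood at 1.02 and 1.10, and 11.7% of the chromosome 18 bins turned from B to A. Domains then numbered 7 in HCT116 and 5 in DKO1 around CDH1, with 7 boundaries found from each list, and 5 in HCT116 on chromosome 5, with 2 boundaries found from each list; 1 HCT116 domain reached the chromosome 16 windows. With a flank of 100 kb the CDH7 difference reversed to 0.0736, 1 CDH1 boundary of each list was found, and on chromosome 5 0 boundaries of either list were found and 0 DKO1 domains were left. With the gene alone, 51.1% of the chromosome 5 bins turned from A to B and 0 from B to A, 1 HCT116 domain and 0 DKO1 domains were left there, CDH1 kept 1 domain in each list, and 0 boundaries were found for either. Taking domains by their midpoint left 0 DKO1 domains on chromosome 5.

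Subtracting the arm mean, chosen after seeing the data, gave 57.5% of chromosome 5 bins from A to B and 0 from B to A. A running mean over 5 bins gave 0 from B to A. With an absolute PC1 of at least 0.5 required in both lines, 16 of 287 bins were left on chromosome 5 and 0 of them switched in either direction, a count too small to test switching. The depth behind the domain lists is unknown.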
